A study of Danio rerio with 20 samples.

Results

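The livers of exercised zebrafish (Danio rerio) were compared between 2 ages, 3 years and 1 year. RNA was sequenced from 5 liver samples of each age, 10 of the 20 samples in the series, and these 10 were taken by their labels alone: swim-tunnel exercise, with an age of 1 or 3 years. All fish were male and of the strain AB JxTu. A deposited table of read counts per gene was used. The other 10 samples came from fish of the same ages, sex and strain without exercise and serve here only for comparison. The labels do not say how long or how hard the fish swam, and they do not say whether each sample came from a separate fish, so the p-values measure the spread between samples, which may be technical.

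The liver makes glucose, fatty acids, cholesterol, bile acids and most plasma proteins, and it burns fatty acids and amino acids in its mitochondria to pay for this work. Hepatocytes do most of it, while resident macrophages clear debris from the blood and display antigens. In many animals liver ageing is accompanied by changes in lipid handling, mitochondrial function and immune activity, and endurance exercise is known to draw on the same mitochondrial and lipid pathways.

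Total counts per gene table were 37276700 to 49579666 at 1 year and 33067760 to 41297161 at 3 years. Levels are given as CPM, read counts scaled to a common library size with the trimmed mean of M-values (TMM). Changes are given as log2 fold changes of 3 years over 1 year with a standard error (SE). This SE was worked back from edgeR's test, as the size of the change divided by the square root of the F statistic. It was not estimated separately from the test. Some libraries stood apart. The intestinal gene fabp2 was above 100 plain CPM (scaled by the library total alone, without TMM) in 1-year replicates 3 and 4 (282.5 and 3306) and in 3-year replicates 1, 2 and 5 (2713, 877.7 and 2449), and below 1 in the other 5. These libraries are called intestinal libraries below. The summed CPM of 34 hepatocyte markers was 159500 in 1-year replicate 4 and 279800 to 323200 in the other 1-year libraries. At 3 years it was 131900, 169100 and 127300 in the intestinal libraries and 317700 and 323300 in replicates 3 and 4. Of the 33 that were tested none was called by edgeR, 5 had an unadjusted p under 0.05, and the median log2 fold change was -0.16. The 37 exocrine pancreas markers summed to 1526 to 35120 CPM at 1 year and to 85940, 7717, 442.5, 751.1 and 32640 CPM at 3 years. The 35 that were tested had a median of 0.67, with none called by edgeR or DESeq2 and none at an unadjusted p under 0.05. Of 36 skeletal muscle markers tested 34 were above 0 (median 1.99), none was called by edgeR, 20 had an unadjusted p under 0.05 and DESeq2 called 15. The summed CPM of all 43 muscle markers was 1629 to 2091 at 1 year and 1349 to 2188 at 3 years. The part of these tissues in the results was not tested. In bulk liver, fewer cells of a type and less RNA per cell cannot be told apart.

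Of 18079 genes tested, 707 (3.91%) rose and 950 (5.25%) fell with age, 9.17% together, at an adjusted p under 0.05 in edgeR's quasi-likelihood test with the Benjamini-Hochberg method. The median log2 fold change over all genes was 0.08. Among the gene lists, those of the respiratory chain, the tricarboxylic acid cycle, lipid synthesis and amino acid breakdown had high shares of genes that fell, and those of macrophages and antigen presentation of genes that rose. Without the intestinal libraries, with 3 samples left at 1 year and 2 at 3 years, 437 genes were called (2.41%; 1.2% higher and 1.21% lower), 320 of them among the 1657. Of the 1657, 1643 could be tested there, and 1640 had the same sign. The samples left were also part of the fit that gave the 1657 calls. Agreement of signs was therefore largely set in advance and is no separate evidence. Other tissues were not balanced in this smaller comparison. Exocrine pancreas markers had a median of -6.15, with 32 of 35 below 0 and 3 at an unadjusted p under 0.05. Skeletal muscle markers had a median of 3.27, with 30 of 34 above 0 and 17 at an unadjusted p under 0.05. None of either list was called by edgeR, and their part in the results was not tested.

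**Figure D1:**
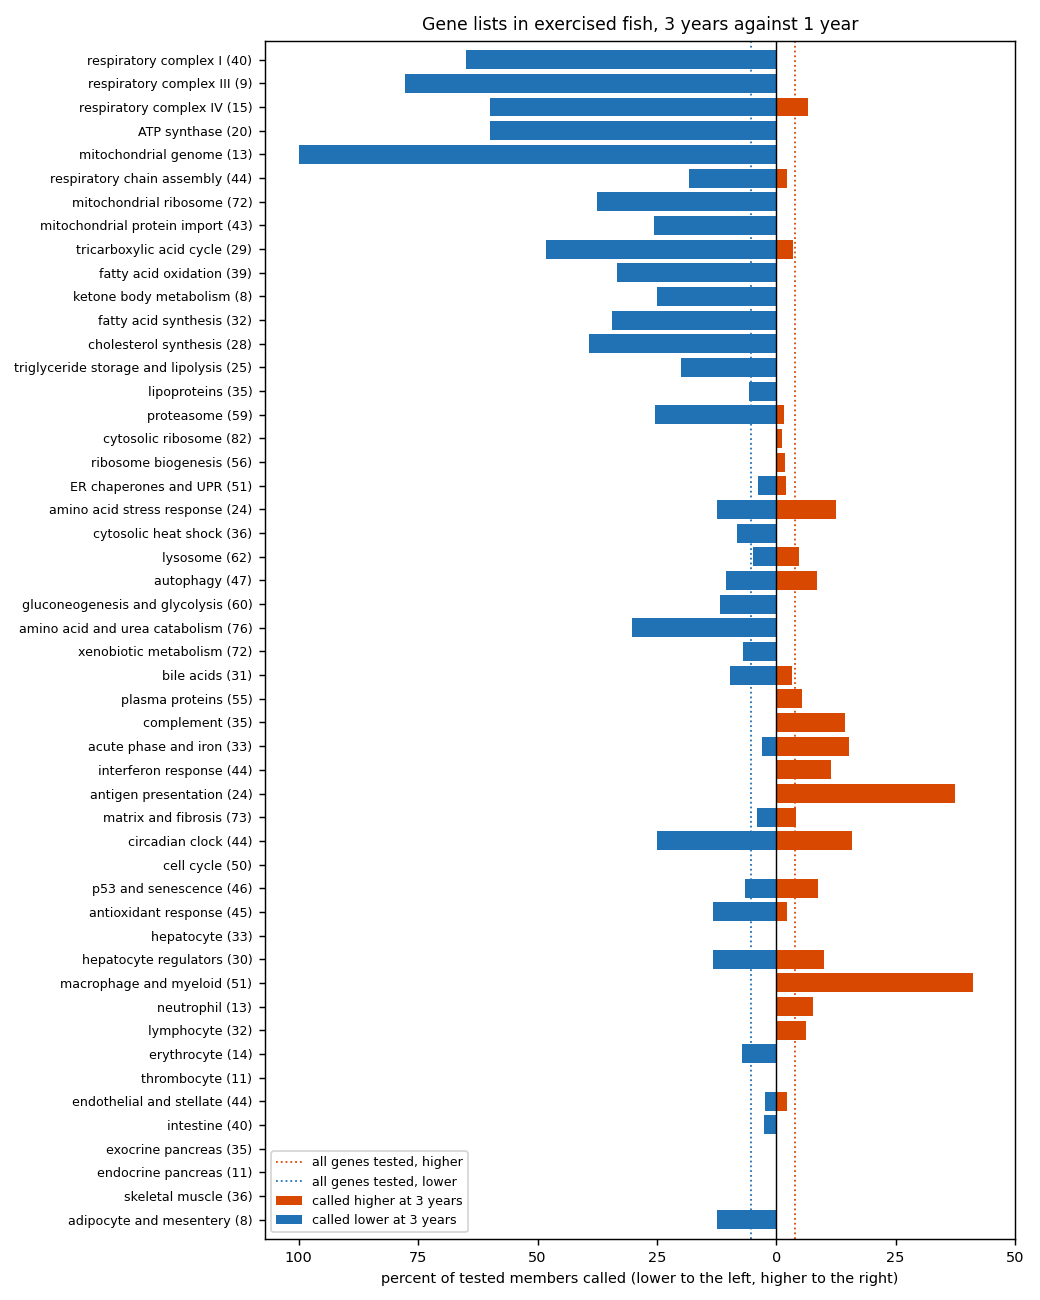
Percent of the tested members of the gene lists called lower (blue, to the left) or higher (orange, to the right). The comparison is 3 years against 1 year in exercised fish, with the number of tested members in parentheses. The lists of complex II (4 tested) and testis (3 tested), with none called, are not drawn. Dotted lines mark the shares of all genes tested, 5.25% lower and 3.91% higher. The mitochondrial genome (13 of 13 lower) and the macrophage and myeloid list (21 of 51 higher) lie farthest out on their sides.

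Genes of mitochondrial respiration were lower at 3 years. The mitochondrial genome encodes 13 proteins, all subunits of the respiratory chain or the ATP synthase, and these 13 transcripts all fell. They took 7.90%, 6.40%, 7.75%, 6.99% and 7.09% of the counts in the 1-year libraries and 5.20%, 6.18%, 3.82%, 3.13% and 6.02% in the 3-year libraries. Every 3-year library lay below every 1-year library. The mean share was 7.23% ± 0.609 at 1 year and 4.87% ± 1.35 at 3 years (SD, n = 5 each; exact permutation test, two-sided p = 0.00794, the smallest that 5 against 5 can give). With pancreas, intestine and muscle genes taken out of the totals the share was 2.22 percentage points lower (p = 0.0159), and p was 0.0238 without any 1 of the 1-year libraries (exact permutation tests). Among resting fish the means were 5.73% and 4.93% (exact permutation test, n = 5 each, p = 0.198). A difference between the age effects with exercise and at rest was called by edgeR for none of the 13 genes. The unadjusted p was under 0.05 for 10 of them. For the share itself this difference was not tested.

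The 13 mitochondrial genes had a median log2 fold change of -0.93. Their calls varied with the libraries used: 3 to 13 of the 13 were called when any 1 of the 10 libraries was left out, 4 without the intestinal libraries, with a median of -1.23, and 1 without 3-year replicates 3 and 4, with a median of -0.76. The share without the intestinal libraries was 3.66 percentage points lower at 3 years, a comparison of 3 with 2 samples that cannot go below p = 0.1 (exact permutation test). Without 3-year replicates 3 and 4 it was 1.43 points lower (exact permutation test, p = 0.0179, the smallest that 5 against 3 can give). Every 3-year library lay below every 1-year library in the full data. The separation in both smaller comparisons was therefore set in advance and is no separate evidence. MT-ND1, a subunit of complex I, was at 3080, 1980, 2670, 1930 and 2430 CPM at 1 year and 1090, 1170, 1030, 911 and 1420 CPM at 3 years (log2 fold change -1.10 ± 0.23, edgeR adjusted p = 0.00736). The groups did not overlap, as for 10.2% of all genes tested.

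Nuclear genes of the same complexes fell alongside. Complex I, which takes electrons from NADH, had 26 of 40 members lower and none higher, with a median of -0.68. NDUFA10 was at 100, 82.0, 93.7, 72.7 and 92.4 CPM at 1 year and at 40.8, 48.3, 40.2, 40.1 and 51.3 CPM at 3 years (-1.0 ± 0.15, edgeR adjusted p = 0.0012). All 3-year libraries were lower, intestinal or not. NDUFB2 fell by 0.81 and ndufab1b by 0.95 on the log2 scale. Complex III, which passes electrons to cytochrome c, had 7 of 9 lower, with UQCRC2 at -0.87 ± 0.15 and the iron-sulphur subunit UQCRFS1 at -1.03 ± 0.19. Complex IV, cytochrome c oxidase, had 9 of 15 lower, and its subunit COX5A had means of 70.0 ± 4.95 CPM in 1-year and 42.0 ± 5.15 CPM in 3-year fish (n = 5 each, SD; -0.74 ± 0.15).

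COX4I2, an isoform of a complex IV subunit known in mammals to be induced by low oxygen, was the one respiratory gene that rose, at 5.73, 2.58, 3.40, 3.91 and 3.29 CPM at 1 year and 19.1, 12.1, 16.5, 43.4 and 7.14 CPM at 3 years (2.38 ± 0.61, edgeR adjusted p = 0.0205). Its call was lost without 3-year replicate 4 (1.86, edgeR adjusted p = 0.0591) or without 1-year replicate 2, 3 or 5. The usual isoform COX4I1 fell by 0.65, a call lost without 6 of the 10 libraries left out in turn (adjusted p up to 0.0766). The ATP synthase had 12 of 20 members lower, led by the membrane ring subunit atp5mc1 (-1.12 ± 0.19), and its catalytic subunit ATP5F1B had means of 1330 ± 246 and 694 ± 80.2 CPM (n = 5 each, SD; -0.93 ± 0.19). Complex II, which belongs to the tricarboxylic acid cycle as well, had none of 4 called by edgeR. All 4 were below 0 (median -0.43), and 3 had an unadjusted p under 0.05. Without the intestinal libraries the median was -0.81, again with none called. SDHA was at 124 to 176 CPM at 1 year and 71.6 to 130 CPM at 3 years, and these ranges overlapped. At 3 years it was at 130, 118 and 126 CPM in the intestinal libraries and 79.0 and 71.6 CPM in the others.

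Of 88 nuclear respiratory genes, edgeR called 54 lower with age in exercised fish and none in resting fish. Below 0 were 83 of them with exercise and 79 at rest, with medians of -0.66 and -0.22. At rest an unadjusted p under 0.05 was met by 5 of 40 in complex I and 4 of 15 in complex IV. It was also met by 2 of 4 in complex II, 2 of 9 in complex III and 2 of 20 in the ATP synthase. The difference between the age effects was called by edgeR for none of the 88, with 16 of the 40 complex I genes at an unadjusted p under 0.05, so the effects are not shown to differ gene by gene. Without the intestinal libraries 17 of the 88 fell, with a median of -0.88: 5 in complex I, and 4 each in complex III, complex IV and the ATP synthase. With 1 library left out, complex I had 18 to 31 lower, complex III 5 to 7, complex IV 4 to 9 and the ATP synthase 10 to 14. Factors that build the complexes had 8 of 44 lower, among them ATPAF2 (-0.88), an ATP synthase assembly factor. At rest 6 of these 44 were lower. The difference between the age effects was called by edgeR for none of them, with 10 at an unadjusted p under 0.05. Mitochondrial ribosome proteins had 27 of 72 lower (median -0.46), and 4 of 72 at rest. With exercise 8 to 34 were lower when 1 library was left out, and 1 without the intestinal libraries. In that smaller comparison the median was -0.68, with 71 of 72 below 0 and 47 at an unadjusted p under 0.05. The cytosolic ribosome had none of 82 called lower by edgeR and 1 higher, with 78 below 0, a median of -0.16 and 2 at an unadjusted p under 0.05. At rest edgeR called none, all 82 were above 0 (median 0.32) and 11 had an unadjusted p under 0.05. The difference between the age effects was called by edgeR for none of the 82. For 81 it was below 0 (median -0.48), and 9 had an unadjusted p under 0.05.

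**Figure D2:**
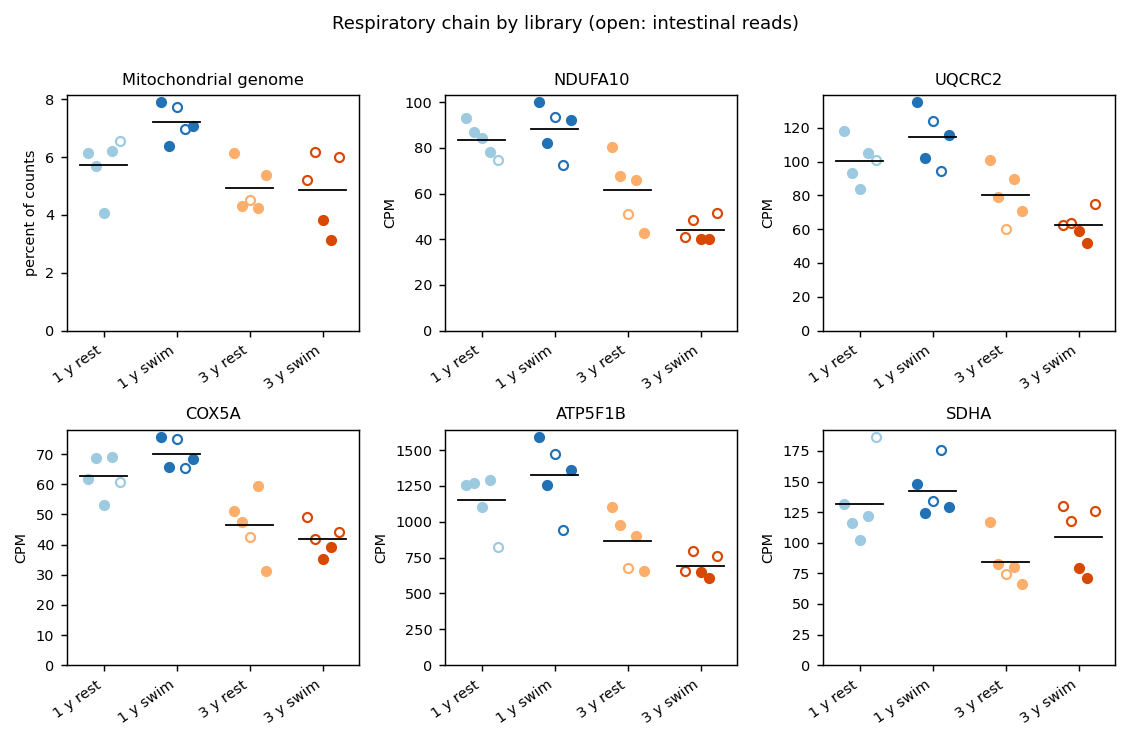
Percent of counts from the mitochondrial genome and CPM of 5 nuclear respiratory genes in each library, by age and exercise. Open circles are intestinal libraries and lines are group means of 5. In the first 5 panels the 3-year exercised libraries all lie below the 1-year exercised ones, with means of 4.87% against 7.23% for the mitochondrial genome; SDHA of complex II overlaps.

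Mitochondrial import and quality control genes had 11 of 43 lower and none higher (median -0.47), 8 to 17 with 1 library left out and 5 without the intestinal libraries. CLPX (ENSDARG00000067796), which unfolds proteins for the matrix protease, was at 78.9, 108, 106, 59.5 and 82.4 CPM at 1 year and 17.9, 30.4, 39.3, 33.0 and 31.5 CPM at 3 years (-1.52 ± 0.22, edgeR adjusted p = 0.000817). With age at rest it was at 0.04, and the difference of the age effects was called (edgeR adjusted p = 0.022). The inner membrane protease YME1L1 (ENSDARG00000075192) followed, at -1.34 ± 0.28 in exercised and 0.64 in resting fish (difference, edgeR adjusted p = 0.0225). The scaffold protein PHB2 (ENSDARG00000017728) fell by 1.46, the chaperone TRAP1 by 1.0 and the import cofactor GRPEL1 by 1.2. TRAP1 and GRPEL1 also fell at rest, by 0.84 and 1.02. Mitochondrial superoxide dismutase, SOD2, fell by 0.97.

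Genes that feed the respiratory chain fell too. The tricarboxylic acid cycle list, with the pyruvate dehydrogenase complex, had 14 of 29 lower and 1 higher (median -0.61), with 8 to 15 lower when 1 library was left out and 5 without the intestinal libraries. PDK2 (ENSDARG00000020876) and PDK4, kinases that switch pyruvate dehydrogenase off, fell by 2.11 ± 0.39 and 1.2 ± 0.23, and the enzyme's own subunit pdha1a fell by 1.08 ± 0.21. PDP1, the phosphatase that switches it back on, was the member that rose (2.24 ± 0.60, edgeR adjusted p = 0.0258), with its call lost without 3-year replicate 4 or 1-year replicate 2, 3 or 5 (edgeR adjusted p up to 0.0717). Its groups overlapped, at 0.924 to 5.76 CPM at 1 year and 5.37 to 19.3 CPM at 3 years. In the cycle itself SUCLG2 fell by 1.23, SUCLA2 by 0.99 and FH, fumarase, by 0.99.

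Fatty acid oxidation had 13 of 39 members lower and none higher (median -0.62, against 0.00 at rest). Calls ran from 6 to 17 with 1 library left out, and without the intestinal libraries none was lower by edgeR, 14 had an unadjusted p under 0.05 and the median was -0.66. The difference between the age effects was called by edgeR for none of the 39, with 16 at an unadjusted p under 0.05. The age effects with exercise and at rest are thus not shown to differ. DECR2, a peroxisomal reductase for unsaturated fatty acids, fell by 1.53 and ACAD9 by 1.46. CPT2, which completes the entry of fatty acids into mitochondria, was at 91.8, 49.6, 77.9, 50.7 and 79.3 CPM at 1 year and 24.8, 31.9, 20.9, 20.9 and 28.0 CPM at 3 years (-1.46 ± 0.28, edgeR adjusted p = 0.00461). All 3-year values were lower. The trifunctional protein subunit HADHA fell by 1.12 and the nuclear receptor pparaa, a regulator of this pathway, by 1.11. CPT1A, the rate-limiting step of entry, was at 23.9, 21.2, 78.3, 47.3 and 23.1 CPM at 3 years against 12.3 to 25.1 CPM at 1 year, with replicates 3 and 4 high, and was not called (0.83 ± 0.35, edgeR adjusted p = 0.149). Without the intestinal libraries it was called higher (1.3, edgeR adjusted p = 0.0449).

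Amino acid breakdown had 23 of 76 members lower and none higher (median -0.68), with 13 to 30 lower when 1 library was left out and 7 without the intestinal libraries. AMT and GLDC, both of the glycine cleavage system of mitochondria, fell by 1.66 ± 0.20 and 1.61 ± 0.24. AMT was at 109, 86.9, 105, 80.0 and 111 CPM at 1 year and 30.8, 36.9, 27.6, 27.1 and 33.1 CPM at 3 years. Its groups did not overlap, as for 10.2% of all genes tested. GLUL (ENSDARG00000100003), which makes glutamine from ammonia, had a mean of 190 ± 79.6 CPM at 1 year (n = 5, SD) and 44.6, 51.7, 20.9, 14.1 and 20.6 CPM at 3 years (-2.64 ± 0.40, edgeR adjusted p = 0.00111). Resting fish of 1 year had 17.9 to 56.4 CPM, so the exercised 1-year fish were the high group. PCCA, of propionate metabolism, fell by 1.57, and prodha, the entry step of proline breakdown, by 3.06. In glucose metabolism 7 of 60 were lower and none higher, but 30 members were above 0 and 30 below, with a median of -0.01. With 1 library left out 1 to 8 were lower and 0 to 6 higher. Without the intestinal libraries edgeR called none, and 19 of 61 had an unadjusted p under 0.05 in either direction. The 7 that fell were led by mitochondrial pck2 (-1.26 ± 0.21), with g6pc1a.1, the last step of glucose release, at -1.2 ± 0.30 (call lost without 1-year replicate 3).

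Genes of lipid synthesis fell, several of them by more than 4 on the log2 scale. The fatty acid synthesis list had 11 of 32 lower and none higher, with a median of -0.79, and 7 to 12 lower when 1 library was left out and 3 without the intestinal libraries. ACACA, whose product makes malonyl-CoA in the committed step, was at 1470, 951, 1010, 560 and 891 CPM at 1 year and 9.20, 47.5, 19.7, 20.2 and 73.1 CPM at 3 years (-4.85 ± 0.68, edgeR adjusted p = 0.000635). The desaturase SCD was at 236 to 683 CPM at 1 year and 0.561 to 21.5 CPM at 3 years (-5.89 ± 1.32), and the synthase FASN at 237 to 1320 and 7.44 to 101 CPM (-3.67 ± 0.83). The groups of all 3 genes did not overlap, as for 10.2% of all genes tested. ACLY (ENSDARG00000099079), which supplies acetyl-CoA, fell by 3.38.

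ACACA, SCD and FASN also fell with age at rest, by 5.41, 7.04 and 6.22, and the difference of the age effects was not called for any of them (edgeR adjusted p = 0.748, 0.725 and 0.292). ME1, malic enzyme, which supplies NADPH for lipid synthesis, was different. It was at 231, 153, 113, 152 and 142 CPM at 1 year and 11, 12.2, 17.7, 6.09 and 10.2 CPM at 3 years with exercise (-3.79 ± 0.52, edgeR adjusted p = 0.000545), with means of 51.2 ± 22.7 and 31.9 ± 26.4 CPM at rest (n = 5 each, SD; -0.68). The difference was -3.10 ± 0.67 (edgeR adjusted p = 0.0336).

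Cholesterol synthesis had 11 of 28 members lower with exercise and 17 at rest, with medians of -1.2 and -1.97. With exercise 9 to 12 were lower when 1 library was left out and 3 without the intestinal libraries. LSS, lanosterol synthase, was at 19.6, 117, 48.1, 27.8 and 59.4 CPM at 1 year and 1.46, 3.00, 1.11, 5.63 and 1.49 CPM at 3 years (-4.42 ± 0.64, edgeR adjusted p = 0.000793). ACAT2 fell by 4.23 and FDPS by 3.45. AACS, acetoacetyl-CoA synthetase, fell by 4.33.

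g0s2 encodes a small inhibitor of the lipase that opens lipid droplets and is a known target of nuclear receptors in mammalian liver. It was at 390, 367, 290, 568 and 420 CPM at 1 year and 23.4, 21.1, 15.0, 16.2 and 27.5 CPM at 3 years (-4.30 ± 0.56, edgeR adjusted p = 0.000383). Resting fish had means of 75.3 ± 45.8 and 75.4 ± 57.0 CPM at the same ages (n = 5 each, SD), so exercised fish lay above both resting means at 1 year and below them at 3 years. The difference of the age effects was -4.30 ± 0.73 (edgeR adjusted p = 0.0105). The other triglyceride genes that fell were LPIN2 (-1.02), GPAT3 (ENSDARG00000016048; -1.26), lpin1b (-2.3) and plin1 (-5.13; call lost without 1-year replicate 1), 5 of 25 in all.

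**Figure D3:**
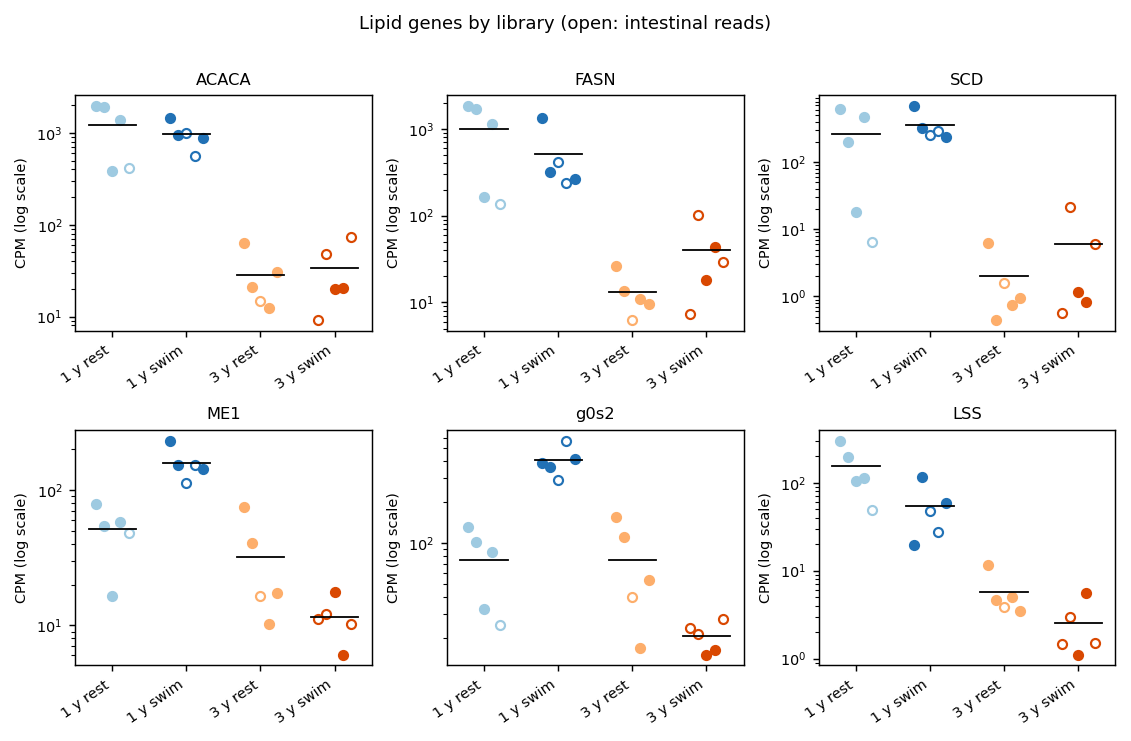
CPM on a log axis of 6 lipid genes in each library, by age and exercise. Open circles are intestinal libraries and lines are group means of 5. ACACA, FASN, SCD and LSS are low at 3 years with and without exercise; ME1 and g0s2 are highest in the exercised 1-year libraries and, for g0s2, at 15.0 to 27.5 CPM in the exercised 3-year libraries.

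Proteasome genes, whose products degrade tagged proteins, had 15 of 59 lower and 1 higher in exercised fish, with 11 to 20 lower when 1 library was left out and 8 without the intestinal libraries. At rest edgeR called none, with 6 at an unadjusted p under 0.05. The difference between the age effects was called by edgeR for 2 of the 59, with 16 at an unadjusted p under 0.05. PSMD6, of the regulatory cap, had means of 58.8 ± 9.22 and 25.1 ± 2.57 CPM (n = 5 each, SD; -1.23 ± 0.15, edgeR adjusted p = 0.000221). PSMB5, a catalytic subunit, had means of 31.4 ± 2.04 and 18.5 ± 1.49 CPM with exercise and 30.3 ± 4.35 and 30.5 ± 3.62 CPM at rest (n = 5 each, SD; difference of age effects -0.77 ± 0.16, edgeR adjusted p = 0.0309). The assembly chaperone PSMD5 was at 7.77, 10.1, 8.39, 8.36 and 9.72 CPM at 1 year and 4.75, 4.24, 3.7, 4.12 and 4.63 CPM at 3 years (difference of age effects -1.31, edgeR adjusted p = 0.00864). The groups of all 3 genes lay apart, as for 10.2% of all genes tested. PSMD10 was the member that rose (1.14), at 7.10, 7.88 and 6.54 CPM in the intestinal 3-year libraries and 2.37 and 2.30 CPM in the others. It was at 0.02 without the intestinal libraries, and its call was lost without 7 of the 10 libraries left out in turn. The immunoproteasome subunits PSMB9 and PSMB10 were not called. The transcription factor XBP1, an activator of chaperone genes in the endoplasmic reticulum, rose by 1.02. Its list of endoplasmic reticulum chaperones had 1 higher and 2 lower of 51, with 39 of them below 0 and a median of -0.26. HSF2, a heat shock factor, fell by 1.65, among 3 of 36 heat shock genes that were lower. That share, 8.33%, was near the 5.25% of all genes, and the list median was -0.12.

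Macrophage genes were higher at 3 years. In the macrophage and myeloid list 21 of 51 rose and none fell (median 1.23), while at rest edgeR called none of the 51 (median 0.21), with 4 at an unadjusted p under 0.05. The difference between the age effects was called by edgeR for none of the 51 (17 at an unadjusted p under 0.05), so they are not shown to differ. With 1 library left out 13 to 28 rose, 15 of 50 did without the intestinal libraries, and 14 of 52 did without 3-year replicates 3 and 4. The C1q chains, which macrophages make and which start the classical complement pathway, rose together. c1qa was at 1.53, 1.66, 1.75, 2.96 and 1.12 CPM at 1 year and 5.85, 12.4, 7.55, 6.96 and 7.70 CPM at 3 years (2.16 ± 0.32, edgeR adjusted p = 0.000817). c1qc rose by 1.89 ± 0.28 and c1qb by 1.81 ± 0.38.

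In resting fish c1qa had means of 4.93 ± 1.74 and 6.53 ± 2.15 CPM at 1 and 3 years, and with exercise 1.8 ± 0.691 and 8.09 ± 2.52 CPM (n = 5 each, SD), so the exercised 1-year fish were the lowest of the 4 groups. The difference of the age effects was 1.76 ± 0.43 and missed the threshold (edgeR adjusted p = 0.0613). Other rises were MFAP4 (ENSDARG00000089667; 5.06), a macrophage marker in zebrafish, the integrin chain itgb2 (1.53), the factor IRF8 (2.23), needed for macrophage formation, and grna.2 (3.44), a granulin. MFAP4 was at most 0.203 CPM at 1 year and 0.401 to 8.01 CPM at 3 years, a low level throughout. csf1ra and cd68 were not called (edgeR adjusted p = 0.142 and 0.571). The summed CPM of 45 intestinal markers ran from 3210 to 43210 at 1 year and from 1207 to 43580 at 3 years. The 40 that were tested had a mean log2 CPM of 1.75 ± 3.25 at 1 year and 3.42 ± 3.73 at 3 years (n = 5 each, SD). Of these 40, 35 were above 0 (median 0.91). EdgeR called 1 lower and none higher, and 2 had an unadjusted p under 0.05. c1qa in the 3-year libraries without intestinal reads, at 7.55 and 6.96 CPM, was inside the range of those with them. In exercised 1-year fish the macrophage list had a mean log2 CPM of 2.25 in intestinal replicate 4 and 0.83 to 1.53 otherwise. At 3 years it was 2.22, 3.25 and 2.94 in the intestinal libraries and 2.5 in the others. In resting fish the library with intestinal reads was the highest at each age, at 3.05 and 2.73. The part of intestinal RNA in these values was not tested.

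Antigen presentation genes had 9 of 24 higher and none lower (median 0.71). cd74a, the invariant chain that guides MHC class II molecules, was at 41.1, 64.9, 63.0, 207 and 48.2 CPM at 1 year and 819, 692, 200, 268 and 988 CPM at 3 years (2.81 ± 0.56, edgeR adjusted p = 0.00606). Of the 1-year intestinal libraries, replicate 4 was the highest of its group and replicate 3, at 63.0 CPM, was below replicate 2. The 3 intestinal libraries were the highest at 3 years. Without the intestinal libraries cd74a was at 2.12 (edgeR adjusted p = 0.0593) and 3 of 24 genes were called. ciita, the master regulator of class II genes, rose by 2.43 and kept its call there (1.8, edgeR adjusted p = 0.0324). The class II chain mhc2dab, at 5.23, was highest in 3-year replicates 1 and 5, with 231 and 148 CPM against 2.62 to 11.2 CPM in the others. Its call was lost without either of them, and also without 1-year replicate 1, 2, 3 or 5. The part of intestinal RNA in these values was not tested. The lymphocyte list had 2 of 32 higher, cd79a and blnk, both of B cell receptor signalling. That share, 6.25%, was near the 3.91% of all genes. Of the 32, 28 were above 0 (median 0.99) and 13 had an unadjusted p under 0.05. Without the intestinal libraries edgeR called 1 of 34.

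Complement and acute phase genes, the liver's secreted defence proteins, differed within the 3-year group. c3a.1 was at 8840, 8830, 9050, 4070 and 11500 CPM at 1 year and 6070, 10100, 30300, 47200 and 8400 CPM at 3 years. c9, of the membrane attack complex, was at 1060 to 2950 CPM at 1 year and 2360, 4060, 10900, 13000 and 2920 CPM at 3 years. Replicates 3 and 4 of 3 years were high for both genes and the intestinal libraries were not, and neither gene was called (edgeR adjusted p = 0.147 for c3a.1 and 0.0639 for c9). Without the intestinal libraries both were (1.92 and 2.2, edgeR adjusted p = 0.0324 and 0.0375). In the complement list 5 of 35 rose and the median was 1.15, 11 rose without the intestinal libraries, with a median of 1.64, and without 3-year replicates 3 and 4 edgeR called none, 4 had an unadjusted p under 0.05 and the median was 0.23. The 5 were c1s.2, cfp, c4b, c6.1 and c1s.1, of which c1s.2 alone kept its call whichever of the 10 libraries was left out. c4b (2.23 ± 0.60) was at 1.68 without 3-year replicate 4 (edgeR adjusted p = 0.0769). The haptoglobin gene hp, whose product binds free haemoglobin, rose by 4.21 ± 1.22, with the same pair of libraries on top at 1010 and 1330 CPM against 65.0 to 102 CPM in the other 3-year libraries. Its call was lost without either of them.

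hamp, the iron hormone hepcidin, was higher in all 3-year libraries, at 19.4, 18.2, 97, 292 and 77.3 CPM against 2.49, 2.25, 2.94, 5.74 and 2.6 CPM at 1 year (4.97 ± 0.87, edgeR adjusted p = 0.00286). It rose at rest too, by 3.01. The ferritin gene fthl27 rose by 2.2 with exercise and 1.99 at rest. crp1, a C-reactive protein gene, fell by 5.59, with 1-year replicate 2 at 0.142 CPM and the other 1-year libraries at 10.5 to 17.1 CPM. Its relative crp6 rose by 6.09, from at most 0.0947 CPM to 0.946 to 8.28 CPM, against -3.34 at rest (difference, edgeR adjusted p = 0.0252). The call of crp1 was lost without 7 of the 10 libraries left out in turn.

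**Figure D4:**
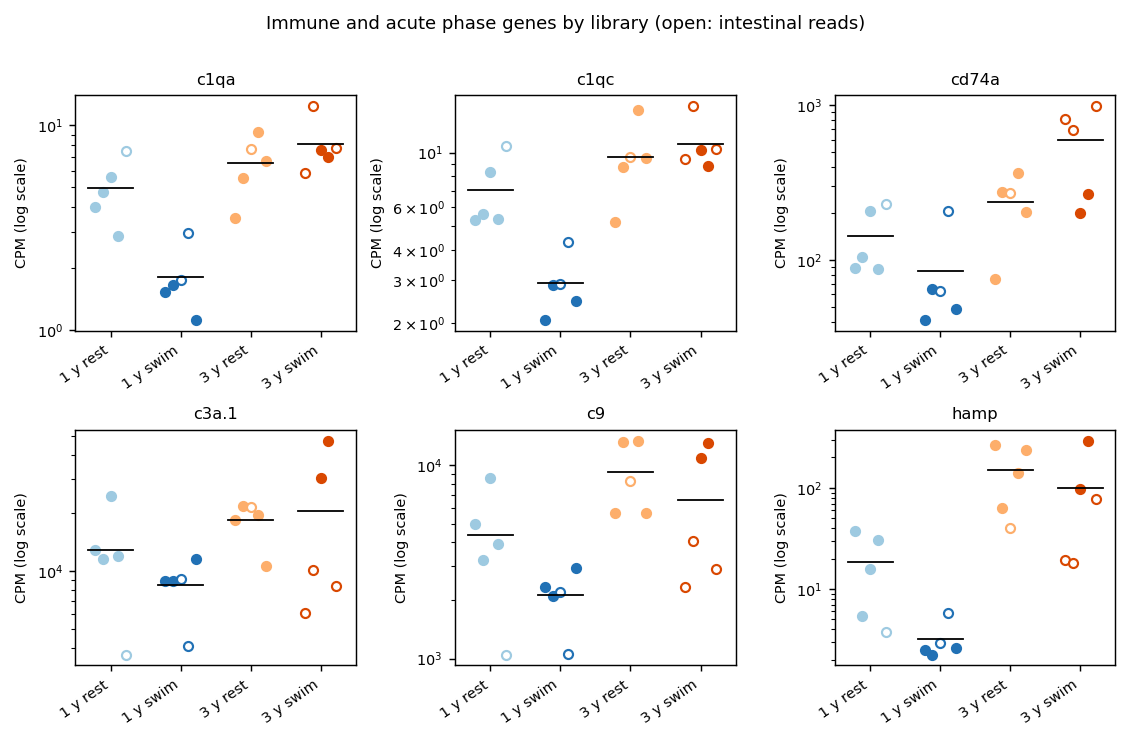
CPM on a log axis of 6 immune and acute phase genes in each library, by age and exercise. Open circles are intestinal libraries and lines are group means of 5. c1qa and c1qc are lowest in exercised 1-year fish; cd74a is highest in the 3 open 3-year libraries, and c3a.1 and c9 are highest in the 2 filled ones among exercised fish.

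Circadian clock genes moved in both directions. The clock is a feedback loop in which CLOCK and BMAL1 activate Per, Cry and Nr1d1 genes, whose products repress them, and PAR bZIP factors such as Dbp carry the rhythm to liver metabolism. Of 44 members 7 rose and 11 fell with exercise, and 3 and 8 did at rest. Without the intestinal libraries 4 rose and 4 fell. The activator BMAL1 (ENSDARG00000006791) was at 7.26, 4.71, 5.88, 6.75 and 6.14 CPM at 1 year and 15.0, 13.1, 11.4, 13.7 and 12.9 CPM at 3 years (1.11 ± 0.13, edgeR adjusted p = 0.000221). The repressor nfil3-5 was at 0.900 to 2.62 CPM at 1 year and 26.2, 14.2, 69.6, 44.0 and 41.9 CPM at 3 years (4.50 ± 0.62), and cry3b, at 14.5 to 27.6 CPM at 1 year, rose to 55.5 to 97.6 CPM (2.1 ± 0.22). No group overlapped with the other in these 3 genes, as for 10.2% of all genes tested and 1184 of the 1657 called. The 3 were named for their small p, so this is no separate evidence.

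On the other side of the loop dbpb was at 48.7, 38.0, 58.5, 22.5 and 42.0 CPM at 1 year and 2.25, 4.53, 4.14, 2.63 and 3.66 CPM at 3 years (-3.61 ± 0.33, edgeR adjusted p = 1.47e-05). PER1 (ENSDARG00000056885) fell by 3.32, NR1D1 by 3.13, CRY1 (ENSDARG00000011583) by 1.67, dbpa by 2.24 and ciarta by 1.99. PER2 and CRY2 were not called. BMAL1, nfil3-5, cry3b, dbpb and NR1D1 changed in the same direction at rest and none of the 5 had a called difference between the age effects. NFIL3, a related repressor, rose by 2.51 with exercise and had 0.18 at rest (difference, edgeR adjusted p = 0.0336). The labels give no time of day for the sampling, and its part in these differences was not tested.

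**Figure D5:**
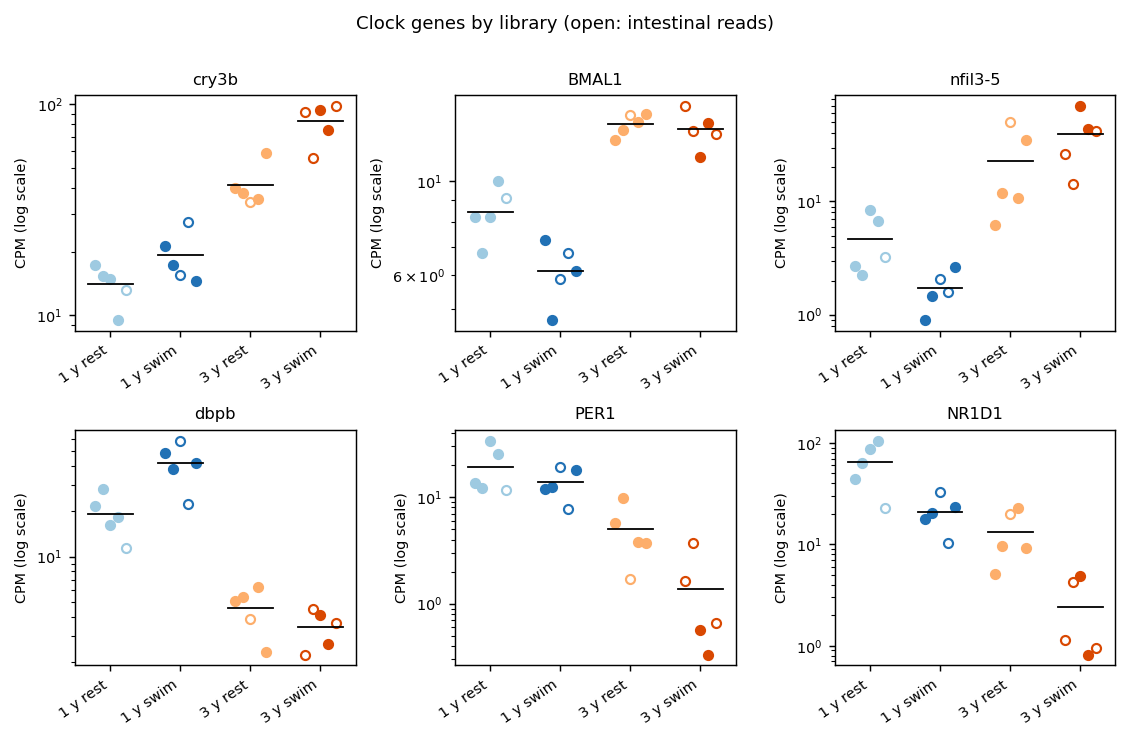
CPM on a log axis of 6 clock genes in each library, by age and exercise. Open circles are intestinal libraries and lines are group means of 5. cry3b, BMAL1 and nfil3-5 are high and dbpb, PER1 and NR1D1 low in all 5 exercised 3-year libraries compared with the exercised 1-year ones, whether or not they hold intestinal reads.

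Among regulators of hepatocyte identity, 3 of 30 rose and 4 fell. The nuclear receptor hnf4b was at 73.1, 71.8, 81.4, 67.1 and 84.1 CPM at 1 year and 21.5, 21.8, 43.9, 20.1 and 32.2 CPM at 3 years (-1.44 ± 0.25, edgeR adjusted p = 0.00239). At rest its means were 37.7 ± 6.85 and 62.2 ± 22.6 CPM (n = 5 each, SD), and the difference of the age effects was -2.16 ± 0.34 (edgeR adjusted p = 0.00751). HNF4A was not called. The stress regulator NFE2L2, which responds to oxidants, rose by 0.98. IGFBP3, an IGF binding protein, rose by 3.72, with 62.5 and 64.6 CPM in 3-year replicates 3 and 4 and 8.26 to 10.6 CPM in the others, and lost its call without that pair (1.98, edgeR adjusted p = 0.0618). The P450 genes cyp2k22 and cyp2k6 and their electron donor POR (ENSDARG00000059035) fell by 1.72, 1.51 and 0.95, among 5 of 72 genes of xenobiotic metabolism, a share of 6.94% near the 5.25% of all genes. Of 50 cell cycle genes edgeR called none, and 3 had an unadjusted p under 0.05.

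The genes with the smallest p included several not yet described. loxl2a, a lysyl oxidase that crosslinks collagen, was at 176, 256, 297, 177 and 234 CPM at 1 year and 24.7, 12.7, 6.1, 10.8 and 5.92 CPM at 3 years (-4.24 ± 0.44, edgeR adjusted p = 6.86e-05). It fell by 2.34 at rest. Its list, matrix and fibrosis, had 3 of 73 higher and 3 lower, 4.11% each, near the shares of all genes. RHBDF1 (ENSDARG00000036541), an inactive rhomboid protease, was at 2.75 to 3.59 CPM at 1 year and 9.11 to 15.6 CPM at 3 years (1.77 ± 0.22), against -0.73 at rest (difference, edgeR adjusted p = 0.00114). Further rises were the corepressor BCOR (1.36), the utrophin gene utrn (1.31), marcksl1a (1.4), the annexin gene anxa3b (2.62) and LRCH1 (1.16). Further falls were the zinc transporter slc39a1 (-1.81), the hydrolase ABHD11 (-3.35), creatine kinase CKB (ENSDARG00000069752; -2.1), frya (-2.63), COQ2 of ubiquinone synthesis (-1.16), HBP1 (-2.0) and the proton pump subunit ATP6V1C1 (ENSDARG00000035880; -1.8).

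Some of the largest changes were carried by few libraries. TG, whose product in the thyroid is thyroglobulin, was at 0.0270 to 0.189 CPM at 1 year and 2.06, 2.50, 86.2, 156 and 2.36 CPM at 3 years (9.30 ± 2.16), and phf20l1, a chromatin reader gene, at 13.4 to 17.8 CPM and 37.9, 33.9, 696, 1940 and 68.5 CPM (5.18 ± 1.06). ASPM, of the mitotic spindle, was at 111 and 123 CPM in 3-year replicates 3 and 4 and 8.40 to 17.2 CPM in the others (4.22 ± 0.85). These 3 genes shared their highest libraries with the complement genes. Without 3-year replicates 3 and 4 all 3 lost their call, at 4.87 for TG, 1.6 for phf20l1 and 2.03 for ASPM (edgeR adjusted p = 0.091, 0.0957 and 0.0612). EPX (ENSDARG00000019521), an eosinophil peroxidase gene in mammals, was highest in intestinal replicates 1 and 2, with 64.0 and 120 CPM (5.75 ± 1.56). Its call was lost without either of them, and also without 1-year replicate 1, 2, 3 or 5. sat2a.2, of the spermidine acetyltransferase family, fell from 80.5 to 216 CPM to at most 0.160 CPM (-10.96 ± 2.44, edgeR adjusted p = 0.0109).

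The age effects with and without exercise were compared last. They share no samples. At rest 223 genes rose (1.23%) and 409 fell (2.26%), 3.5% of those tested, and 191 genes were called in both comparisons, 11.5% of the calls with exercise and 30.2% of those at rest. Of these 191, 43 were higher and 130 lower in both. The difference of the age effects was called for 177 genes (0.979%), 98 more positive (0.542%) and 79 more negative (0.437%) with exercise, and 110 of them were among the 1657. Those of smallest p in well expressed genes, besides RHBDF1 and hnf4b, were MYO18A (ENSDARG00000075752; 2.1), ACBD3 (ENSDARG00000024602; 2.2), the stress sensor kinase EIF2AK3 (2.4) and the ubiquitin ligase subunit fbxw11a (-2.32). MYO18A, ACBD3 and EIF2AK3 fell at rest, by 1.47, 1.72 and 1.98, and were not called with exercise. fbxw11a was at 26.8 to 73.5 CPM at 1 year and 10.4 to 19.4 CPM at 3 years with exercise (-1.8 ± 0.26) and 0.53 at rest.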

How the data were processed

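RNA of 20 liver samples was prepared with an unstranded kit, per the labels' protocols, so overlapping and antisense genes cannot be told apart. The deposited table holds whole-number read counts per Ensembl gene. bcl2fastq 1.8.4, STAR 2.4.1d, featureCounts 1.4.6-p4 and the build GRCz10 are listed in the submitters' processing notes. Genes with a shared symbol carry their identifier, since reads of close copies may be divided between them.

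All 20 samples were fitted with 4 group means in edgeR 4.0.16 under R 4.3.3 (filterByExpr, TMM, quasi-likelihood test, Benjamini-Hochberg adjustment, threshold 0.05), a procedure tested on simulated data. DESeq2 1.42.0 and limma 3.58.1 served as alternatives. Replicates were numbered in accession order. Total counts of the 10 exercised libraries were 33067760 to 49579666.

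The gene lists, the rule for named genes and the comparison itself were chosen with earlier results of these data known. Named were the 12 rises and 12 falls of smallest p and the 6 of largest fold each way above 5 CPM, up to 6 called members per list and direction, defining members of families, and the 6 differences between age effects of smallest p. SDHA, COX4I1, c3a.1, c9, csf1ra, cd68, HNF4A, PER2 and CRY2 were named after their values were seen. Leaving out 3-year replicates 3 and 4 was an alternative chosen after seeing the data. Some genes that this rule names are not reported here.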

Additional observations from a re-analysis of the deposited data

Results flagged for a closer look

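The age effect differed between exercised and resting fish (edgeR test of the difference, adjusted p under 0.05) for 18 of the genes named. Over all 18079 genes tested this difference was called for 177 (0.979%). RHBDF1, MYO18A, ACBD3, EIF2AK3, fbxw11a and hnf4b were named for their small p in this same test. Many others were named for their change with age in exercised fish, which is part of the difference. The 18 are therefore no measure of how often the age effects differ. More positive with exercise were RHBDF1 (2.5, adjusted p = 0.00114), utrn (1.28), NFIL3 (2.33), phf20l1 (5.71, adjusted p = 0.0489), MYO18A (2.1), ACBD3 (2.2), EIF2AK3 (2.4), blnk (1.06) and crp6 (9.43). More negative were slc39a1 (-1.46), g0s2 (-4.3), fbxw11a (-2.32), hnf4b (-2.16), CLPX (-1.56), YME1L1 (-1.98), ME1 (-3.1), PSMD5 (-1.31) and PSMB5 (-0.77). All values are log2 differences. crp6 was at 1.1 and 5.99 CPM in 2 resting 1-year libraries and at most 0.034 CPM in the other 3, so its difference rests on few libraries.

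Single libraries lay apart from their own group of 5 by Dixon's gap test, which chance alone meets in about 1 in 20 groups. It was run on both exercised groups for many genes and lists. A number of the values below would therefore be met by chance alone. 1-year replicate 4, the library with the highest fabp2 among exercised fish, was high for hamp (5.74 CPM), IRF8 (2.83 CPM) and cd74a (207 CPM), and low for sat2a.2 (80.5 CPM), CPT1A (12.3 CPM), c3a.1 (4070 CPM) and the mean of the hepatocyte markers (10.33 log2 CPM). 1-year replicate 2 was low for crp1 (0.142 CPM) and lpin1b (0.9 CPM), replicate 1 for PDK4 (85.9 CPM) and IGFBP3 (1.47 CPM), and replicate 3 for XBP1 (46.5 CPM). Among 3-year libraries, replicate 1 was low for g6pc1a.1 (49.7 CPM), replicate 2 was high for c1qc (15.5 CPM), replicate 3 for ciarta (26.6 CPM) and replicate 5 for RHBDF1 (15.6 CPM). No explanation of these values was tested.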

How the results depend on the processing

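The count of genes called with age in exercised fish, 1657, was 3011 with DESeq2 and 437 without the intestinal libraries. It stayed within 1.5 times under the other scalings, filters and models. Leaving out 1 library gave 866 (without 1-year replicate 3) to 2515 (without 1-year replicate 4), and the count also moved by over 1.5 times without 3-year replicate 1 (1025) or 1-year replicate 1 (1034) or 5 (956). The 177 differences between the age effects became 680 with DESeq2, 100 with no filter on low counts, 20.0 without the intestinal libraries, 305 without 3-year replicates 3 and 4, and 58 to 216 with 1 library left out. The mitochondrial share differed by -3.66 percentage points without the intestinal libraries (exact permutation test p = 0.1, the smallest that 3 against 2 can give) and by -2.68 to -1.92 with 1 library left out. Of 117 named genes called with age, 102 kept their call whichever of the 10 libraries was left out. These genes were named largely for their small p in the full data, and each refit reused the remaining libraries. The figure therefore does not stand for all 1657 calls. c3a.1, not called, turned to -0.05 without 3-year replicates 3 and 4. The causes were not tested. No paired analysis was possible because the replicate numbers come from accession order and pair no samples.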

Other observations

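The interferon list had 5 of 44 members higher at 3 years with exercise and none at rest by edgeR (2 at an unadjusted p under 0.05), with medians of 1.22 and -0.44. The difference between the age effects was called by edgeR for none of the 44 (15 at an unadjusted p under 0.05), so they are not shown to differ. With exercise the list's summed CPM was 2051, 2112 and 2551 in the intestinal 3-year libraries and 813.4 and 1371 in the others, and at 1 year 1743 in intestinal replicate 4 and 642.7 to 935.5 in the others. In resting 1-year fish it was 3420 in replicate 5, which holds intestinal reads, and 749.4 to 836.1 in the others. In resting 3-year fish it was 1460 in replicate 3, which holds intestinal reads, and 775.6 to 1306 in the others. With 1 library left out 2 to 12 rose, and without the intestinal libraries 1 did. The part of intestinal RNA was not tested. irf9, a subunit of the factor that turns on interferon-stimulated genes, was at 7.11, 8.17, 7.66, 9.44 and 9.94 CPM at 1 year and 11.7, 16.2, 14.7, 15.8 and 14.5 CPM at 3 years (0.78 ± 0.18, edgeR adjusted p = 0.0139). The groups did not overlap, as for 10.2% of all genes tested, and resting fish of 1 year were at 9.79 to 16.7 CPM. irf1b, at 1.38, was highest in 3-year replicate 5 (217 CPM) and its call was lost without that library.

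sat2a.2 took only high or near-zero levels in all 20 libraries. The 5 exercised libraries of 1 year were at 80.5 to 216 CPM and the 5 of 3 years at 0.0207 to 0.16 CPM. At rest 1 of the 1-year libraries was at 0.166 CPM, with the others at 50 to 226 CPM, and 1 of the 3-year libraries was at 191 CPM, with the others at 0.132 to 0.196 CPM. The age effect at rest was -1.68 and was not called (edgeR adjusted p = 0.67).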
